A study of Mus musculus with 12 samples.

Results

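DEAD-box and DEAH-box helicases are enzymes that use ATP to open RNA duplexes or to strip proteins from RNA, and they are named for the amino acids of a shared motif. Most steps in the life of an RNA have one or more of them, from ribosome assembly in the nucleolus through splicing, export and translation to decay, and several sense viral RNA. The kinase mTOR promotes growth and ribosome production, TSC2 restrains it, and rapamycin inhibits it. PGC-1alpha is a transcriptional coactivator best known for raising mitochondrial genes.

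The genes described here are those whose single symbol in the array's probe-to-gene table is Ddx or Dhx followed by a number and at most 1 letter. The rule found 51 genes of 18193, 35 of them Ddx and 16 Dhx, measured by 113 of 45037 probe sets. Each gene is given by its brightest probe set, the one with the highest mean log2 intensity over all 12 arrays. In all, 17 genes had 1 probe set and 34 had several, up to 6. The genes were sorted by role into 10 groups, with 1 to 16 genes each.

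All 12 Affymetrix MOE430 v2 arrays came from TSC2-/- mouse embryonic fibroblasts, so every group lacks TSC2 and no cells with TSC2 are analysed here. There were 3 arrays in each of 4 groups: rapamycin (20 nM for 14 h), its vehicle DMSO, PGC-1alpha (infection of confluent cells for 10 h with an adenovirus carrying PGC-1alpha, harvested 14 h after a medium change), and GFP (the same with an adenovirus carrying GFP). The design text calls the 3 arrays of a group biological triplicates but gives no more on their source, so the p-values measure the spread between these arrays. Of the fibroblast markers, Col1a1, Col1a2, Col3a1, Fn1 and Vim had median intensities between 8166.0 and 11757.9, while Ptprc, Cdh1, Pecam1 and Cdh5, which define leukocytes, epithelium and endothelium, had medians between 24.6 and 33.8. The other fibroblast markers were dimmer, with medians of 1738.8 for Pdgfra, 772.5 for S100a4, 305.0 for Thy1, 259.0 for Postn and 225.4 for Pdgfrb. Among markers outside the fibroblast list, Epcam had a median of 718.5, Csf1r of 215.0 and Kdr of 176.1.

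GFP replicate 3 stood apart from its group. The SD of its log2 differences from GFP replicates 1 and 2 was 0.155 and 0.167, and from the PGC-1alpha arrays it was 0.142 to 0.151. Helicase genes called by brightest probe set in the PGC-1alpha comparison are therefore given with and without it. Other probe sets, counts at an unadjusted p or by array overlap, role groups and gene lists are given with all arrays only. A control for RNA integrity and labelling, the Gapdh signal at the 3' end over that at the 5' end, moved with both comparisons. It averaged 0.820 ± 0.011 on the rapamycin arrays and 0.849 ± 0.011 on the vehicle arrays (SD, n = 3 each), without overlap. The PGC-1alpha arrays averaged 0.899 ± 0.006 and the GFP arrays 0.875 ± 0.008 (SD, n = 3 each), also without overlap. The same ratio overlapped between groups for the other controls: beta-actin averaged 1.31 ± 0.011 on the rapamycin arrays and 1.309 ± 0.019 on the vehicle arrays, and the transferrin receptor 3.948 ± 0.195 on the rapamycin arrays and 3.672 ± 0.189 on the vehicle arrays. On the PGC-1alpha arrays beta-actin averaged 1.323 ± 0.008 and on the GFP arrays 1.281 ± 0.031, and the transferrin receptor 3.206 ± 0.207 on the PGC-1alpha arrays and 2.979 ± 0.033 on the GFP arrays (SD, n = 3 each). The part of these ratios in the results was not tested.

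The first comparison asked how helicase transcripts respond to rapamycin in these TSC2-/- cells. Rapamycin lowered 26 of the 51 genes and raised 6, and 19 did not pass the test. The greatest falls were those of Ddx39a, an mRNA export factor, by 1.90-fold, and of Ddx27 (1.70-fold), Ddx20 (1.69-fold), Ddx21 (1.65-fold) and Ddx52 (1.55-fold), which assemble ribosomes or splicing particles. The 6 that rose, Ddx58, Ddx6, Ddx50, Dhx57, Ddx17 and Dhx40, changed by 1.13-fold to 1.26-fold. Over all 18193 genes, 18% were lowered and 11.3% raised, so the share of helicase genes lowered (51%) stood above that background, while the share raised (11.8%) was close to it. That background includes dim genes. With probe sets of a mean log2 intensity under 6 left out, 24.5% of all probe sets were lowered and 17.8% raised. Of the 47 helicase genes then left, 26 were lowered and 7 raised. Those shares count every probe set and the helicase genes only the brightest, so they are not like for like. The share over all genes after this filter was not computed. A gene counts as lowered or raised where limma's two-sided p, adjusted by Benjamini-Hochberg over all 45037 probe sets, is under 0.05. The median log2 change was -0.21 over the helicase genes and -0.01 over all genes. Among the 26 lowered genes all 3 rapamycin arrays lay below all 3 vehicle arrays, and among the 6 raised genes all lay above. Whether called or not, 29 helicase genes had all rapamycin arrays below, against 24.6% of all genes, and 8 had all above, against 17.5%. Falls of at least 1.5-fold that passed the test were found for 5 helicase genes, against 2.56% of all genes, and such rises for 0, against 1.15%. In bulk RNA, fewer cells of a type and less RNA per cell cannot be told apart.

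These counts are relative to the other probe sets of each array. When arrays were aligned on the bacterial spike controls, the median over all probe sets shifted by -0.22 with rapamycin, and 0 helicase genes were raised and 37 lowered, with a median of -0.42 over the helicase genes. Over all probe sets 2.87% were then raised and 52.1% lowered. The mean log2 intensity of the spikes was 10.52, 10.71 and 10.59 on the rapamycin arrays, against 10.47, 10.36 and 10.34 on the vehicle arrays. The spike values passed through RMA with the other probe sets of their batch. Whether they follow the amount of RNA per cell was not tested, so the shift is not read as a fall in total RNA.

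**Figure D1:**
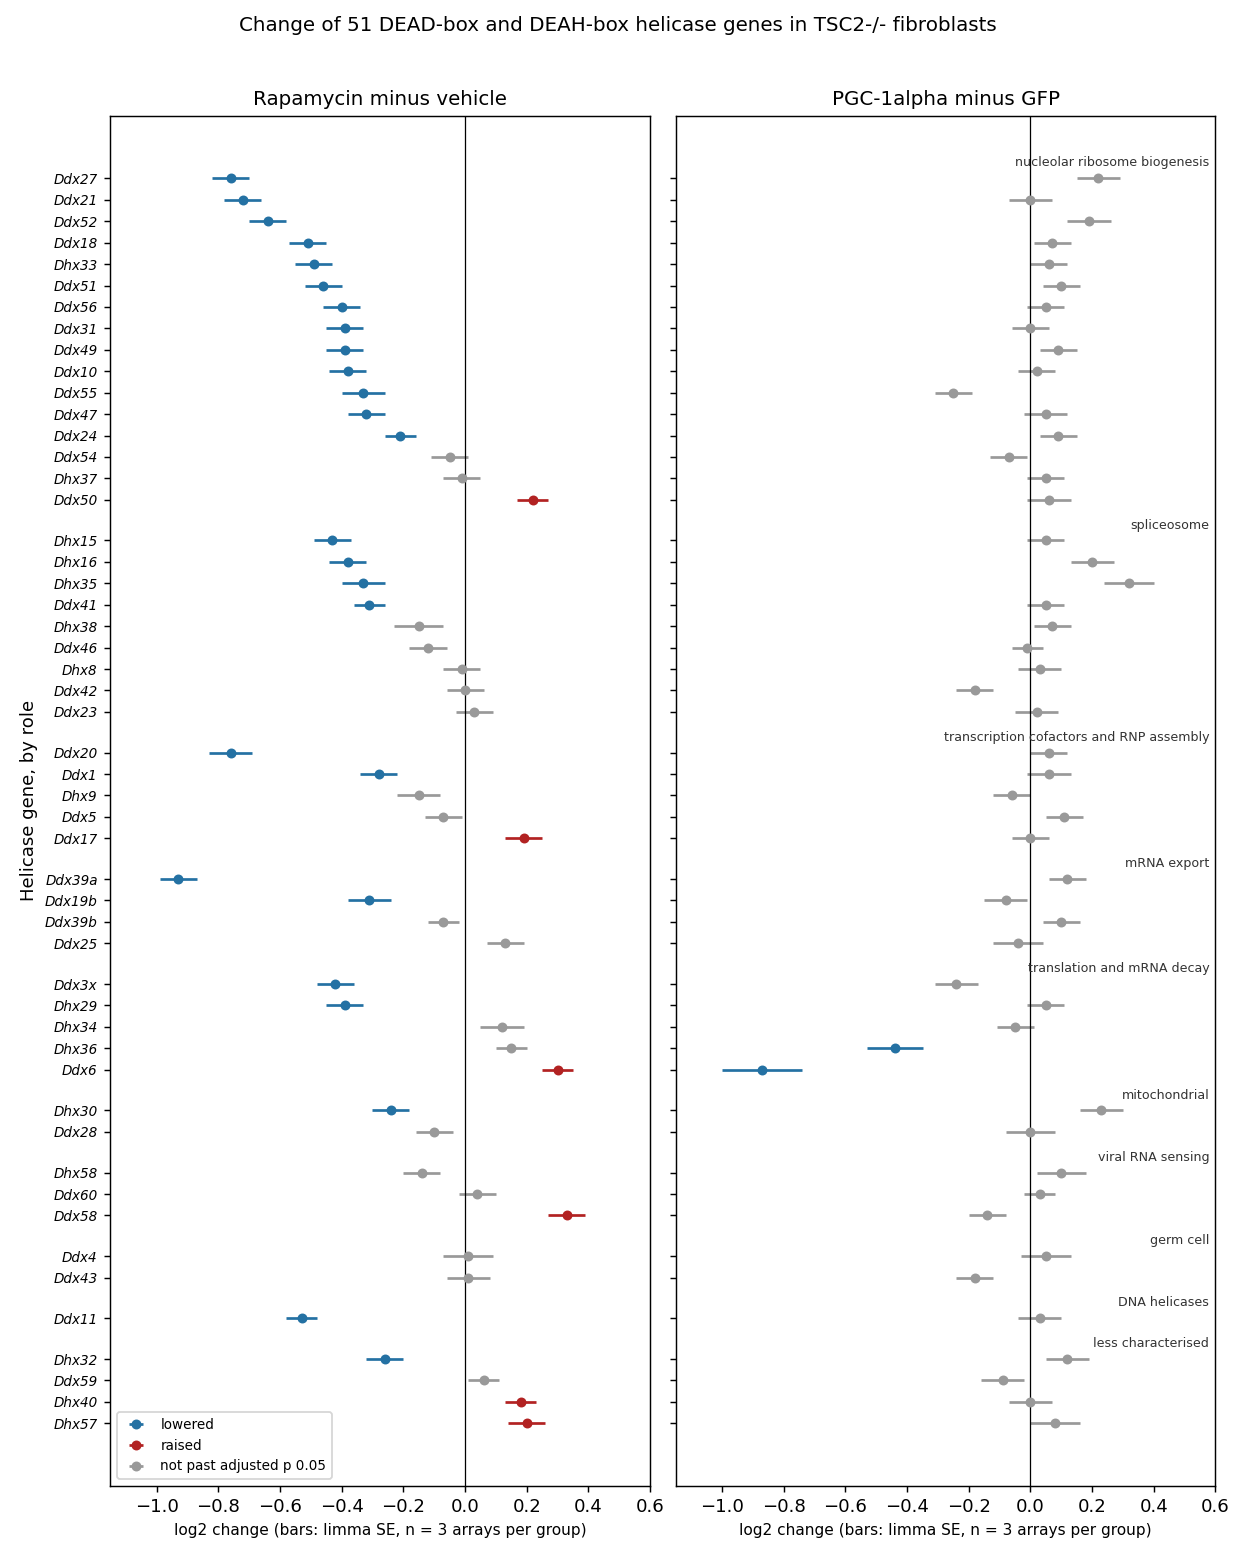
Log2 change of each of the 51 helicase genes (rows, grouped by role) with rapamycin against vehicle (left) and with PGC-1alpha against GFP (right), with limma's standard error as bars and 3 arrays per group; blue marks genes lowered and red genes raised at an adjusted p under 0.05. In the left panel 13 of the 16 nucleolar genes are blue, and in the right panel Ddx6 and Dhx36 are the only coloured points.

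The nucleolar group held 13 of the 26 falls. These helicases unwind pre-ribosomal RNA, release small nucleolar RNAs from it, or act on ribosomal DNA transcription. Of its 16 genes 1 was raised and 13 were lowered, with a median log2 change of -0.39. Of the 35 other helicase genes, 13 were lowered and 5 raised, with a median of -0.10, and the share lowered among them (37.1%) was also above the 18% of all genes. Whether the nucleolar group differed from the other helicases was not tested.

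Ddx27, which acts in assembly of the large ribosomal subunit, had intensities of 223.1, 247.2 and 232.7 with rapamycin, against 412.5, 399.8 and 380.4 with vehicle. All rapamycin arrays were low and the groups were far apart, a log2 change of -0.76 (SE 0.06, adjusted p = 1.3e-06). Its dimmer probe set gave -0.08 (adjusted p = 0.45), and the median over both -0.42 (adjusted p = 4.4e-05). Ddx21, which acts in ribosomal RNA transcription by RNA polymerase I and in its processing, had 576.6, 551.5 and 553.7 with rapamycin, against 977.1, 940.3 and 853.2 with vehicle. The groups did not overlap, with a log2 change of -0.72 (SE 0.06, adjusted p = 2.6e-06), and its dimmer probe set gave -0.70. Ddx52, whose yeast counterpart Rok1 acts in assembly of the small subunit, had 238.2, 254.8 and 240.9 with rapamycin, against 363.3, 366.5 and 412.6 with vehicle. Its groups were separate too, with a log2 change of -0.64 (SE 0.06, adjusted p = 7.6e-06).

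The other nucleolar falls were smaller. Ddx18, the counterpart of yeast Has1, gave -0.51, Dhx33, which acts in ribosomal DNA transcription, -0.49, and Ddx51, the counterpart of yeast Dbp6, -0.46. Ddx56, Ddx31, Ddx49, Ddx10, Ddx55, Ddx47 and Ddx24 gave between -0.40 and -0.21, all past the threshold. The falls of Ddx47 and Ddx24 rested on the brightest probe set: with the median over each gene's probe sets they were 0.03 (adjusted p = 0.72) and -0.10 (adjusted p = 0.12). Their other sets were dim, with mean log2 intensities on the rapamycin arrays of 5.76 and 3.59 for Ddx47 and 4.88 for Ddx24. Such values may be background, so these medians say little about the brightest sets. That of Ddx55 was -0.33 with its brightest set and -0.16 (adjusted p = 0.029) with the median. Dhx37, the counterpart of yeast Dhr1, which releases the U3 small nucleolar RNA, gave -0.01 (adjusted p = 0.93) at a dim intensity. Ddx54 gave -0.05 (adjusted p = 0.61) with its brightest probe set and -0.25 (adjusted p = 0.0075) with the next brightest. Its dimmest set gave 0.29 (adjusted p = 0.13), with overlapping groups.

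Ddx50, a paralog of Ddx21 and its neighbour in the genome, went the other way. It had 871.6, 942.6 and 889.5 with rapamycin, against 789.0, 778.8 and 757.4 with vehicle. Every rapamycin array was above every vehicle array, with a log2 change of 0.22 (SE 0.05, adjusted p = 0.0095). With spike scaling the change was 0.00 (adjusted p = 0.98), and with the median over its probe sets it was 0.14 (adjusted p = 0.052).

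The bases before an annotated start of some of these genes are shown because neighbours such as Ddx21 and Ddx50 changed in opposite directions. The promoter motifs can also be read in them beside the calls. The sequences are RefSeq's for GRCm38.p6, 250 bases ending just before the annotated start, given 5' to 3' on the gene's strand, with capitals marking the motifs searched on both strands. Only windows with a motif in these 250 bases are shown, and that of Ddx21, which has none. The Ddx50 window lies inside that gene, which extends to base 62658764 of chromosome 10, so it is not the window of the outermost start. The windows of Dhx33, Dhx36 and Dhx16 lie partly inside their genes, whose bounds on that side are bases 71004533, 62507034 and 35879764. They too are not windows of the outermost start. Which motifs are printed for these genes, and how Ddx50 compares with Ddx21, therefore depends on this choice. The windows are chr10:62602299-62602548 (minus strand) for Ddx21, chr10:62651219-62651468 (minus) for Ddx50, chr11:71004433-71004682 (minus) for Dhx33, chr17:35879528-35879777 (plus) for Dhx16, chr12:13249175-13249424 (minus) for Ddx1 and chr3:62506989-62507238 (minus) for Dhx36.
Ddx21: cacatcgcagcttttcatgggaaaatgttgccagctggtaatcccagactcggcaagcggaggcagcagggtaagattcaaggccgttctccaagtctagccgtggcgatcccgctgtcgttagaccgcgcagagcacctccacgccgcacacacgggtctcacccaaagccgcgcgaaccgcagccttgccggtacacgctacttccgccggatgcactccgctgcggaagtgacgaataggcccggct
Ddx50: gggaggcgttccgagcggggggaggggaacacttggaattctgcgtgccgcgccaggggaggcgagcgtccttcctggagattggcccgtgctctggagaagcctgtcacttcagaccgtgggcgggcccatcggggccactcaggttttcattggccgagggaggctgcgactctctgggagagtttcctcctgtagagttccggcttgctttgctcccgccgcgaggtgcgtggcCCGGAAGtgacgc
Dhx33: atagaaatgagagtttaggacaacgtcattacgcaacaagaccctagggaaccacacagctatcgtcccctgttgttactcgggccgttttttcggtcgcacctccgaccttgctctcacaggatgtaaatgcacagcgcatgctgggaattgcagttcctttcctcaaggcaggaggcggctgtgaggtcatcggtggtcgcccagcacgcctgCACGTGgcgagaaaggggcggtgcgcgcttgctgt
Dhx16: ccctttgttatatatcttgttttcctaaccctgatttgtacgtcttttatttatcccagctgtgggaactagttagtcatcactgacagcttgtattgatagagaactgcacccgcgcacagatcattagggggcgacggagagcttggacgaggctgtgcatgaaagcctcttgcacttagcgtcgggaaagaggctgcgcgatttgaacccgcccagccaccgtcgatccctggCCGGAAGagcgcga
Ddx1: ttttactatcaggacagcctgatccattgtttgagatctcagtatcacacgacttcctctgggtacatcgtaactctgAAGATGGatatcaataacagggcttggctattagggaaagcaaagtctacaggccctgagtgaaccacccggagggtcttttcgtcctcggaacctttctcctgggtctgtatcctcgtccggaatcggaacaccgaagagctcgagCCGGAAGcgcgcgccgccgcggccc
Dhx36: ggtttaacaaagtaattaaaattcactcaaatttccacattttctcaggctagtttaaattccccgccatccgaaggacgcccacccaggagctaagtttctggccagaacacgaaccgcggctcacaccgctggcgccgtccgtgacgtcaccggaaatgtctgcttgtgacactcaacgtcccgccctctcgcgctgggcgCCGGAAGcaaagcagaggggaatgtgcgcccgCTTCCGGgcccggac
Windows of 300 bases, 250 before to 50 after the start, were held by RefSeq for 45 of the 51 genes. The motif CCGGAAG, bound by ETS factors, was in 19 of the 45 windows (42.2%), in 15% of the windows of 14452 genes on the array and in 9.93% of those of 27025 genes in all. It was in 9 of 24 helicase genes lowered with rapamycin (37.5%) and in 10 of 21 that were not (47.6%). Above, it stands in capitals before the start used for Ddx50, which was raised, and for Dhx16 and Ddx1, which were lowered. It stands on both strands before that of Dhx36. The E-box CACGTG, bound by Myc and Max, was in 7 of 45 windows (15.6%), against 10.2% of array genes, and Dhx33 carries it. It was in 2 of 24 helicase genes lowered with rapamycin (8.33%) and in 5 of 21 that were not (23.8%). AAGATGG, a core of YY1 sites, was in 2 (Ddx1 and Ddx47), which is 4.44% against 7.54%. The NRF1 site, GCGCA followed at once by TGCGC, was in 2 (Dhx34 and Dhx37), which is 4.44% against 1.75%, and TCAAGGTCA, bound by estrogen-related receptors, was in 0, against 0.401%. A gene with several annotated starts was counted if any window held the motif, and a match describes letters only.

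The spliceosome group holds helicases that remodel small nuclear RNAs and eject the finished intron. Of its 9 genes 4 were lowered (44.4%, against 18% of all genes), with a median of -0.15. Rises were 0, against 11.3% of all genes, and 0 also at an unadjusted p under 0.05 in limma, against 15.6%. Dhx15, the counterpart of yeast Prp43, which takes the spent spliceosome apart, had 2178.7, 2381.4 and 2194.3 with rapamycin, against 2999.8, 3087.7 and 3022.3 with vehicle. The 3 rapamycin arrays were all low, at a log2 change of -0.43 (SE 0.06, adjusted p = 6.7e-05). Dhx16, the counterpart of yeast Prp2, which activates the spliceosome for its first step, had 361.9, 404.6 and 369.3 with rapamycin, against 481.6, 504.0 and 487.8 with vehicle. Again no array overlapped, at -0.38 (SE 0.06, adjusted p = 0.00030). Dhx35, a spliceosome protein, had 125.6, 135.2 and 141.3 with rapamycin, against 156.5, 177.0 and 173.8 with vehicle, which is -0.33 (SE 0.07, adjusted p = 0.0017).

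Ddx41 gave -0.31 (adjusted p = 0.00069). The counterparts of yeast Prp16, Prp22 and Prp28, which act at successive steps of splicing, did not pass: Dhx38 gave -0.15, Dhx8 -0.01 and Ddx23 0.03. Ddx42 gave -0.00. Ddx46, the counterpart of yeast Prp5, gave -0.12 (adjusted p = 0.16) with its brightest probe set, while its 4 other probe sets were all lowered, with log2 changes of -0.61 to -0.21.

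Among the helicases of transcription and of RNA-protein assembly, 2 of 5 were lowered (40%, against 18% of all genes) and 1 was raised (20%, against 11.3%). Ddx20, also called Gemin3, is part of the SMN complex that loads Sm proteins onto small nuclear RNAs. It had 392.0, 459.6 and 449.7 with rapamycin, against 765.9, 758.8 and 677.6 with vehicle. The highest rapamycin array lay well below the lowest vehicle array, with a log2 change of -0.76 (SE 0.07, adjusted p = 5.6e-06) from its single probe set. Ddx1, part of the tRNA ligase complex, had 1443.6, 1564.1 and 1402.4 with rapamycin, against 1768.1, 1804.8 and 1758.1 with vehicle, or -0.28 (SE 0.06, adjusted p = 0.0027). Its other probe set gave -0.02 (adjusted p = 0.89), and the median over both -0.15 (adjusted p = 0.040). The close relatives Ddx5 and Ddx17, coregulators of transcription that also act in microRNA processing, gave unlike calls.

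Ddx17 had 2901.1, 3122.4 and 3083.2 with rapamycin, against 2727.1, 2719.9 and 2518.4 with vehicle, the rapamycin arrays all higher. Its change was 0.19 (SE 0.06, adjusted p = 0.024), and all 3 of its probe sets were raised, but with spike scaling it was -0.02 (adjusted p = 0.84). Without rapamycin replicate 2, rapamycin replicate 3 or vehicle replicate 3 its adjusted p was 0.062, 0.086 or 0.10. Ddx5 gave -0.07 (adjusted p = 0.42), and none of its 6 probe sets passed. Dhx9, an RNA helicase of transcription and RNP remodelling, gave -0.15 (adjusted p = 0.19), but with the median over its probe sets it was -0.30 (adjusted p = 0.020). That median is the value of its second brightest set, whose groups overlapped, and its dimmest set gave 0.03 (adjusted p = 0.73).

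The mRNA export group held the greatest change of all 51 genes. Ddx39a is a paralog of Ddx39b (UAP56), and both hand spliced mRNA to export receptors. Ddx39a had 1412.5, 1613.8 and 1537.2 with rapamycin, against 2857.0, 2890.6 and 2918.9 with vehicle. The rapamycin arrays were all far below, at a log2 change of -0.93 (SE 0.06, adjusted p = 3.9e-07), and all 5 of its probe sets were lowered, with log2 changes of -0.93 to -0.35. Ddx39b, by contrast, gave -0.07 (adjusted p = 0.39). Ddx19b, which strips export receptors from mRNA at the nuclear pore, had 128.0, 125.0 and 112.1 with rapamycin, against 145.6, 145.4 and 161.3 with vehicle, or -0.31 (SE 0.07, adjusted p = 0.0033). With the median over its probe sets that change was -0.06 (adjusted p = 0.41). The testis helicase Ddx25 gave 0.13 (adjusted p = 0.19). Probe sets of such close paralogs may share signal, which was not tested.

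**Figure D2:**
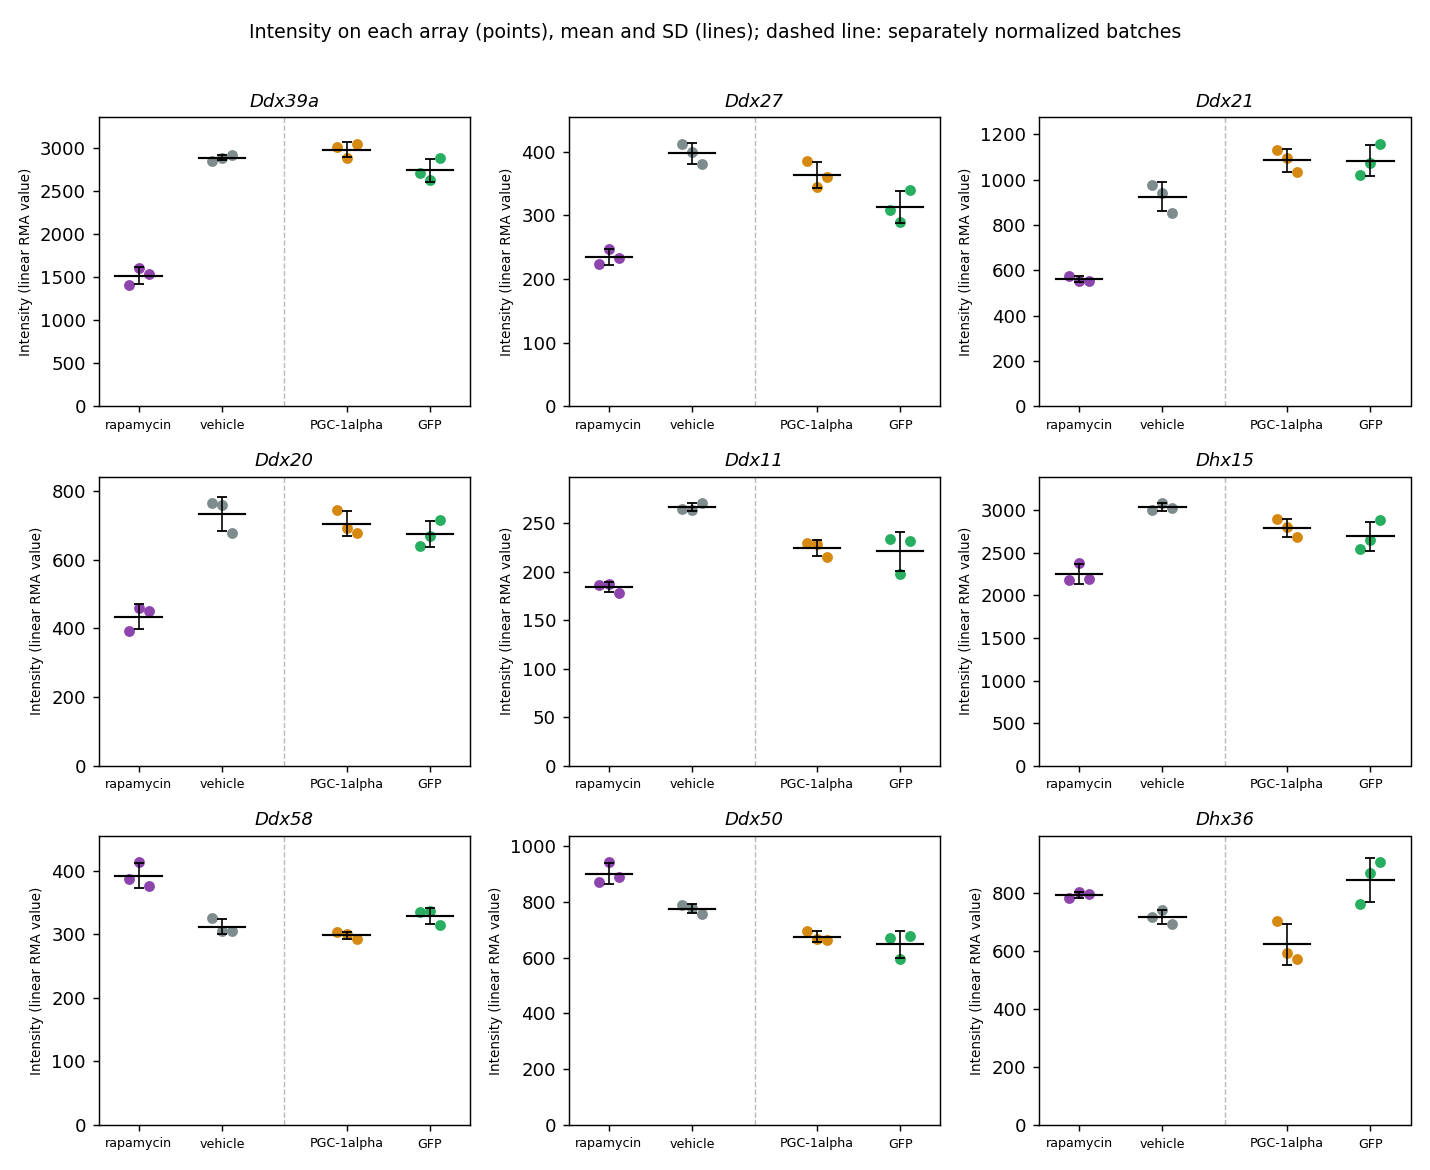
Linear RMA intensity of 9 helicase genes on each array (points), with the mean and SD of the 3 arrays of each group as lines; the dashed line parts the batches that were normalized separately. Ddx39a, Ddx27, Ddx21, Ddx20, Ddx11 and Dhx15 are lower on all rapamycin arrays than on all vehicle arrays, Ddx58 and Ddx50 are higher, and Dhx36 is lower on all PGC-1alpha arrays than on all GFP arrays.

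Among the helicases of translation and mRNA decay, 2 of 5 were lowered (40%, against 18% of all genes) and 1 was raised (20%, against 11.3%) with rapamycin. Ddx3x helps initiation on mRNAs with structured leaders. It had 3060.7, 3232.9 and 3163.7 with rapamycin, against 4055.3, 4466.5 and 4144.3 with vehicle. The rapamycin arrays were all low, at -0.42 (SE 0.06, adjusted p = 0.00010), and its other probe sets gave -0.68 and -0.56. Dhx29, which aids ribosome scanning, had 137.7, 156.5 and 144.5 with rapamycin, against 193.8, 181.0 and 199.9 with vehicle, or -0.39 (SE 0.06, adjusted p = 0.00042). Dhx34, of nonsense-mediated decay, gave 0.12 (adjusted p = 0.27).

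Ddx6 is the helicase of P bodies, where it represses translation and promotes removal of the mRNA cap. Its brightest probe set had 431.1, 433.9 and 421.2 with rapamycin, against 336.1, 366.6 and 343.6 with vehicle. Every rapamycin array was higher, at a log2 change of 0.30 (SE 0.05, adjusted p = 0.0011). The second brightest of its 4 probe sets had 527.8, 523.5 and 529.4 with rapamycin, against 358.7, 402.9 and 320.2 with vehicle, a change of 0.55 (adjusted p = 8.6e-05). The remaining sets did not pass: the third gave 0.10 (adjusted p = 0.20) and the fourth, which was dim, gave 0.13 (adjusted p = 0.10). With spike scaling the change of the brightest set was 0.08 (adjusted p = 0.41).

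The mitochondrial, viral sensing and DNA helicase groups gave 1 call each. Dhx30, which acts in mitochondrial ribosome assembly, had 613.2, 696.3 and 607.2 with rapamycin, against 736.8, 749.9 and 765.7 with vehicle, or -0.24 (SE 0.06, adjusted p = 0.013). Its dimmest probe set went the other way, with 50.7, 48.4 and 49.5 with rapamycin, against 35.9, 41.6 and 41.8 with vehicle, or 0.32 (adjusted p = 0.0025). Neither set overlapped between groups. The opposing set was dim, with mean log2 intensities of 5.63 with rapamycin and 5.31 with vehicle, and the other 2 sets gave -0.16 (adjusted p = 0.14) and -0.11 (adjusted p = 0.21), in the direction of the brightest. Without rapamycin replicate 1 or 3 the adjusted p of its brightest set was 0.051 or 0.066. Ddx28, the other mitochondrial helicase here, gave -0.10 (adjusted p = 0.26).

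Ddx58, better known as the viral RNA sensor RIG-I, had 387.5, 413.7 and 376.4 with rapamycin, against 325.7, 305.9 and 305.4 with vehicle. All rapamycin arrays were higher, a change of 0.33 (SE 0.06, adjusted p = 0.00077). With spike scaling it was 0.11 (adjusted p = 0.25), and with the median over its probe sets 0.16 (adjusted p = 0.073). Dhx58 (LGP2), its regulator, gave -0.14 (adjusted p = 0.13), and the interferon-induced Ddx60 gave 0.04 at a dim intensity. Ddx11, a DNA helicase of sister chromatid cohesion, had 186.4, 187.4 and 178.3 with rapamycin, against 264.7, 263.5 and 271.1 with vehicle. That was a narrow spread on both sides and a change of -0.53 (SE 0.05, adjusted p = 7.5e-06).

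Of the less characterised genes, Dhx32 had 259.7, 300.6 and 281.7 with rapamycin, against 323.1, 341.2 and 345.9 with vehicle, or -0.26 (adjusted p = 0.0067). Its other probe set gave -0.04 (adjusted p = 0.81), and with the median over both the call was lost (-0.15, adjusted p = 0.054). Dhx57 had 258.4, 278.0 and 271.9 with rapamycin, against 234.3, 226.0 and 242.1 with vehicle, or 0.20 (adjusted p = 0.016). Dhx40 had 472.0, 486.0 and 460.6 with rapamycin, against 416.0, 428.3 and 407.0 with vehicle, or 0.18 (adjusted p = 0.023). The groups of these genes did not overlap, but with spike scaling Dhx57 gave -0.01 and Dhx40 -0.03, and each lost its call without at least 1 single array: Dhx57 without rapamycin replicate 3, vehicle replicate 1 or vehicle replicate 2 (adjusted p = 0.058, 0.050, over the threshold before rounding, and 0.074), and Dhx40 without rapamycin replicate 2, vehicle replicate 1 or vehicle replicate 3 (adjusted p = 0.053, 0.072 and 0.077). Ddx59 gave 0.06. The germ cell helicases Ddx4 (Vasa) and Ddx43 gave 0.01 each.

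The second comparison asked which helicase transcripts respond to PGC-1alpha. In the helicase genes it lowered Ddx6, by 1.82-fold, and Dhx36, by 1.36-fold, and raised none by limma. Over all genes 0.594% were lowered and 1.41% raised, so 2 of 51 lowered (3.92%) stood above the first share. At an unadjusted p under 0.05, 5 helicase genes were higher (9.8%, against 8.88% of all genes) and 7 lower (13.7%, against 3.31%). All PGC-1alpha arrays lay above all GFP arrays for 7 helicase genes, against 10.1% of all genes, and below for 7, against 5.72%. The fall of Ddx6 was the only one past 1.5-fold among the helicase genes, against 0.0495% of all genes, and rises of that size were 0, against 0.0934%. The median log2 change was 0.05 over the helicase genes and 0.01 over all genes. The nucleolar group, of which 13 fell with rapamycin, had 0 genes raised and 0 lowered, with 2 higher and 1 lower at an unadjusted p under 0.05, and a median of 0.06.

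Ddx6 was the helicase gene with the greatest change. Its brightest probe set had 382.3, 369.2 and 256.0 with PGC-1alpha, against 556.7, 596.5 and 659.6 with GFP. All PGC-1alpha arrays were low, replicate 3 lowest of all, while GFP replicate 3 was the highest of its group, and the log2 change was -0.87 (SE 0.13, adjusted p = 0.0040). The second brightest set had 264.9, 272.9 and 186.1 with PGC-1alpha, against 528.3, 586.0 and 638.7 with GFP, a change of -1.29 (SE 0.12, adjusted p = 0.00031).

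The other probe sets of Ddx6 did not show it. The third set had 287.0, 281.1 and 260.2 with PGC-1alpha, against 251.5, 249.1 and 300.8 with GFP, overlapping groups and a change of 0.05 (adjusted p = 0.90). The fourth, dim set had 34.5, 34.6 and 39.0 with PGC-1alpha, against 45.5, 42.2 and 38.2 with GFP, again overlapping, at -0.22 (adjusted p = 0.23). Which transcripts each probe set reads is not analysed here. Leaving out each array in turn, the change of the brightest set ran from -0.97 to -0.68 and kept its call; without GFP replicate 3 it was -0.80 (adjusted p = 0.0051).

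Dhx36 unwinds G-quadruplexes in mRNA. It had 705.1, 592.9 and 572.6 with PGC-1alpha, against 762.9, 870.2 and 907.9 with GFP. The groups did not overlap but nearly met, at -0.44 (SE 0.09, adjusted p = 0.022), and without GFP replicate 3 the change was -0.39 (adjusted p = 0.024). The call was lost without GFP replicate 2 (adjusted p = 0.12), PGC-1alpha replicate 2 (0.11) or PGC-1alpha replicate 3 (0.13). Its other probe sets gave 0.11 (the second, adjusted p = 0.61) and -0.05 (the third, adjusted p = 0.87). With rapamycin those sets gave -0.16 (adjusted p = 0.043) and 0.15 (adjusted p = 0.050, under the threshold before rounding), both passing in opposite directions, and the brightest gave 0.15 (adjusted p = 0.058).

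**Figure D3:**
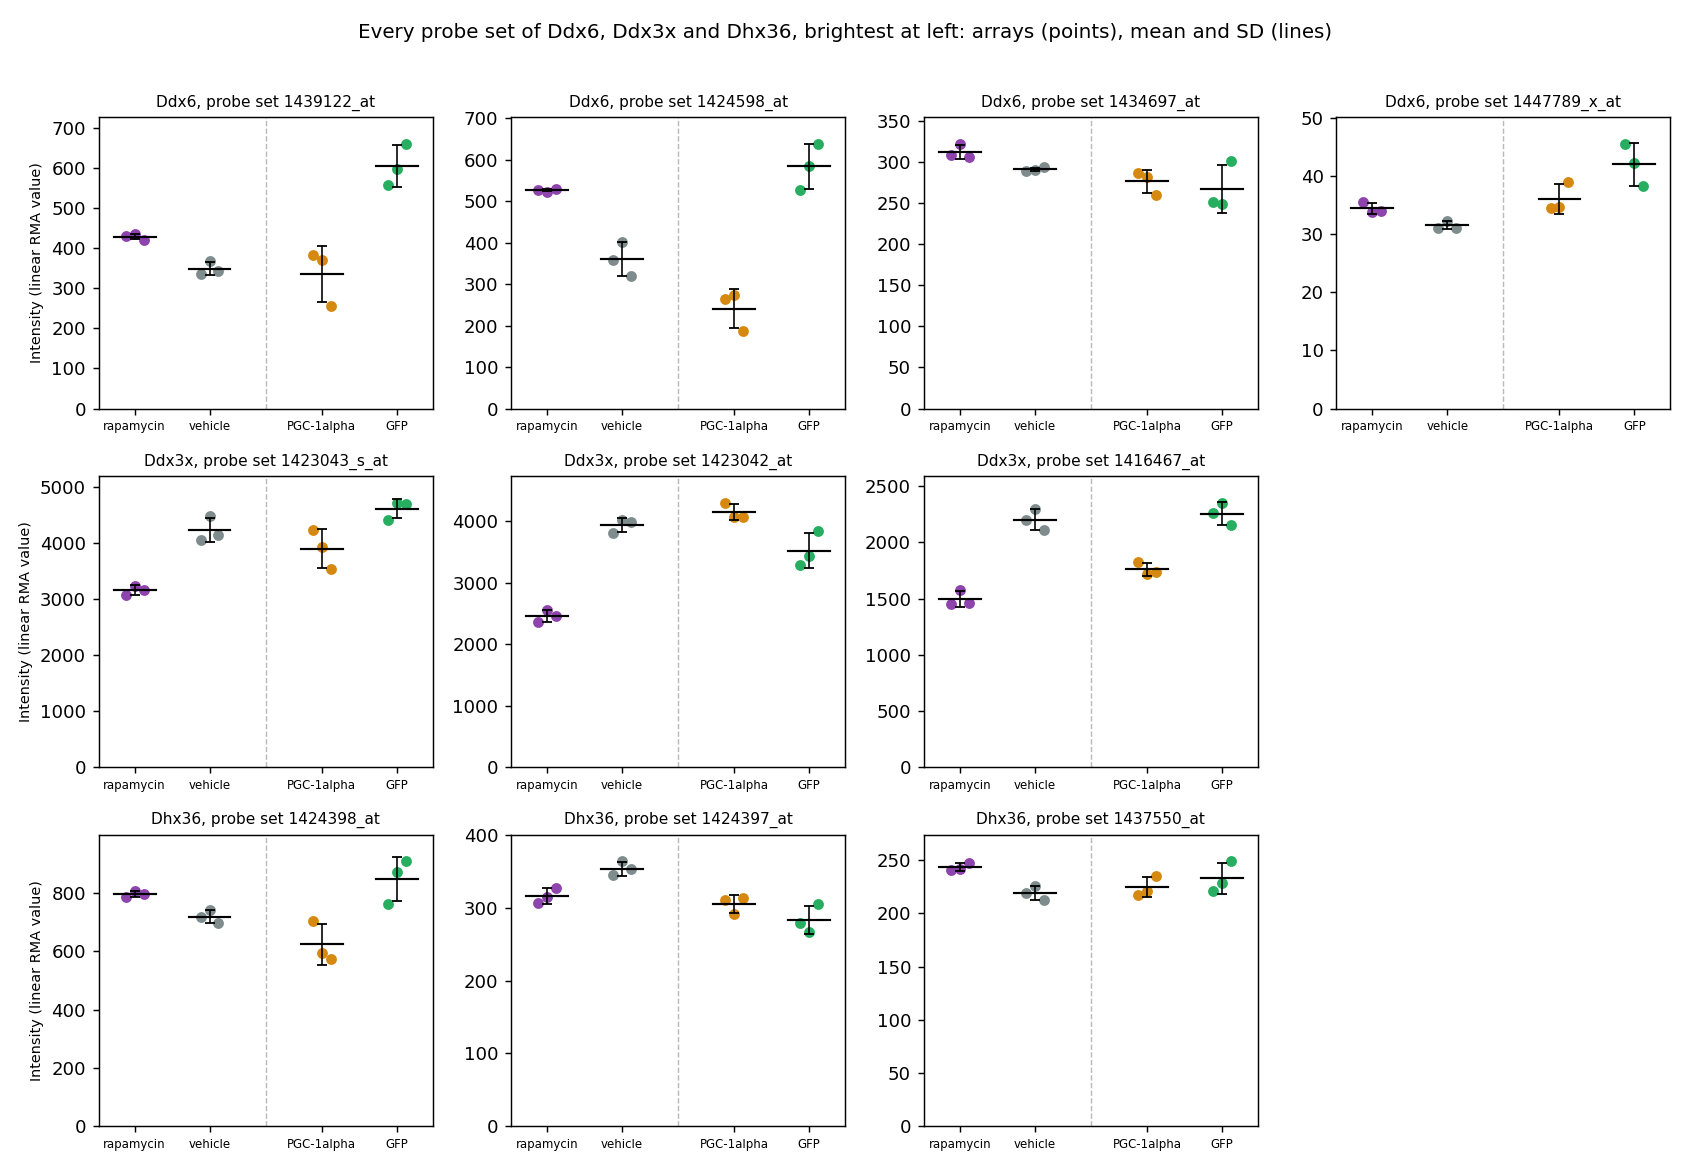
Linear RMA intensity on each array (points) for every probe set of Ddx6, Ddx3x and Dhx36, brightest at left, with group means and SD as lines and a dashed line between the batches. The first pair of Ddx6 sets is lower on all PGC-1alpha arrays than on all GFP arrays, while the third set overlaps; the Ddx3x sets are all lower with rapamycin but differ in direction with PGC-1alpha.

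Ddx3x also depended on the probe set. With PGC-1alpha, its dimmest set had 1826.9, 1714.4 and 1736.8, against 2264.6, 2351.9 and 2149.6 with GFP, a log2 change of -0.36 (adjusted p = 0.0099). Its second brightest set had 4296.2, 4070.4 and 4068.3 with PGC-1alpha, against 3287.4, 3434.2 and 3831.4 with GFP, or 0.24 (adjusted p = 0.11), and the brightest set gave -0.24 (adjusted p = 0.13). The dimmest set was lower and the second brightest higher on all PGC-1alpha arrays. A dimmer set of Ddx10 was also lowered, at -0.27 (adjusted p = 0.049), where the brightest gave 0.02. Both of these sets had been lowered with rapamycin too, that of Ddx3x at -0.56 and that of Ddx10 at -0.30. In all, 5 of the 113 helicase probe sets were lowered with PGC-1alpha and 0 raised, against 0.955% lowered and 0.997% raised over all probe sets.

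Without GFP replicate 3, calls rose in general: 4.35% of all probe sets were raised with PGC-1alpha and 1.95% lowered, against 0.997% and 0.955% with all arrays. Among the helicase genes, by brightest probe set, 4 were then raised and 2 lowered. The shares above count every probe set, and those over all genes without this array were not computed. With all arrays 1.41% of all genes were raised and 0.594% lowered. The raised ones were Dhx35 at 0.41 (adjusted p = 0.0061), Dhx30 at 0.30 (0.0098), Dhx16 at 0.28 (0.012) and Ddx27 at 0.28 (0.025). With all arrays they gave 0.32 (adjusted p = 0.080), 0.23 (0.14), 0.20 (0.25) and 0.22 (0.18), and all PGC-1alpha arrays lay above all GFP arrays for each. All 4 had been lowered with rapamycin.

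The effects of rapamycin and of PGC-1alpha were then set against each other within 1 limma fit of the 12 arrays. The effects come from different arrays and different batches, and each batch's own control cancels in its effect. The rapamycin effect was lower than that of PGC-1alpha for 23 helicase genes (45.1%, against 16.5% of all genes) and higher for 3 (5.88%, against 7.59%). All 23 were among the 26 genes lowered with rapamycin. Both tests use the same rapamycin and vehicle arrays, so this overlap is no separate result. The 3 lowered genes whose difference did not pass were Ddx19b (-0.23, adjusted p = 0.14), Ddx3x (-0.18, adjusted p = 0.22) and Ddx55 (-0.08, adjusted p = 0.66). These values are by brightest probe set. The second brightest set of Ddx3x did pass, with a difference of -0.92 (adjusted p = 5.1e-07), and its dimmest set gave -0.20 (adjusted p = 0.10). Among nucleolar genes, 12 of 16 differed, all lower with rapamycin. The greatest differences were -1.05 for Ddx39a (SE 0.08, adjusted p = 8.1e-08) and -0.98 for Ddx27 (SE 0.09, adjusted p = 5.6e-07).

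The genes higher with rapamycin than with PGC-1alpha, by brightest probe set, were Ddx6, Dhx36 and Ddx58. Their differences were 1.17 (SE 0.15, adjusted p = 1.3e-05), 0.59 (SE 0.11, adjusted p = 0.00038) and 0.47 (SE 0.08, adjusted p = 0.00025). By its brightest probe set Ddx6 was thus raised in one experiment and lowered in the other. For Dhx36 the direction of the difference depended on the probe set. Its set of middle brightness passed in the opposite direction, at -0.27 (adjusted p = 0.028). Its dimmest set gave 0.20 (adjusted p = 0.092). By brightest probe set and separate fits 0 of the 51 genes were lowered in both, against 0.077% of all genes. In the limma fit of 12 arrays, where the spread is shared, Ddx3x and Ddx55 were lowered in both by brightest probe set. Ddx3x gave -0.42 with rapamycin and -0.24 with PGC-1alpha, the second with adjusted p = 0.046. Ddx55 gave -0.33 and -0.25, the second with adjusted p = 0.039. The second brightest set of Ddx3x gave 0.24 with PGC-1alpha. With spike scaling the differences of Dhx36 (0.18, adjusted p = 0.34) and Ddx58 (0.05, adjusted p = 0.78) did not pass, and that of Ddx6 did.

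**Figure D4:**
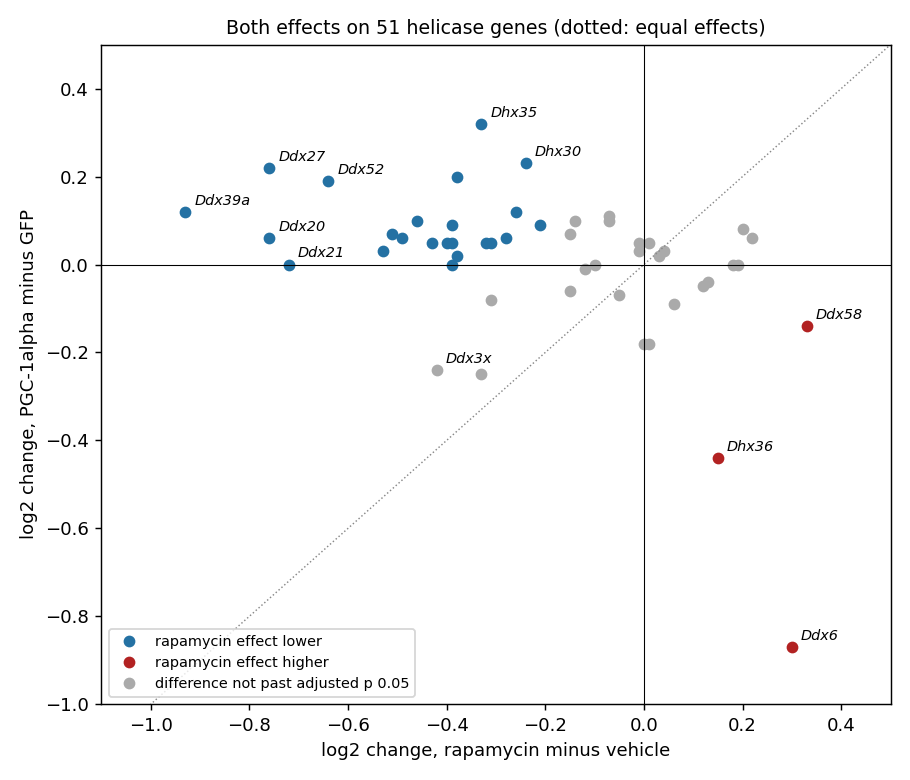
Log2 change with rapamycin against vehicle (x axis) and with PGC-1alpha against GFP (y axis) of the 51 helicase genes, coloured by the test of the difference between the effects; the dotted line marks equal effects. The 23 blue genes lie left of the dotted line at PGC-1alpha changes of 0.00 to 0.32, and Ddx6 stands alone at 0.30 and -0.87.

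Genes that work with these helicases were read from lists, by counts beside the shares of all genes (18% lowered and 11.3% raised with rapamycin, 0.594% and 1.41% with PGC-1alpha). The first list held other RNA helicases and relatives outside the Ddx and Dhx names, of which 14 were measured; it also holds Nol9, a polynucleotide kinase of ribosomal RNA processing that is no helicase. With rapamycin 6 of the 14 were lowered (42.9%) and 1 raised (7.14%), with a median of -0.13. The falls included Mtrex, the helicase of the nuclear exosome, at -0.64 (adjusted p = 5.7e-06), Nol9 at -0.57 and the mitochondrial RNA helicase Supv3l1 at -0.43 (adjusted p = 0.00061). The paralogs of the cap-binding complex's helicase parted, with Eif4a1 at -0.29 (adjusted p = 0.0011) and Eif4a2 at 0.25 (adjusted p = 0.0081). With PGC-1alpha 1 of the 14 was raised, Supv3l1 at 0.36 (adjusted p = 0.019), and 0 were lowered, also at an unadjusted p under 0.05 in limma.

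Of 25 measured partners of Ddx6 in decapping and deadenylation, 4 were lowered (16%) and 3 raised (12%) with rapamycin, shares near those of all genes. Tnrc6b, a scaffold of microRNA silencing, gave 0.44 (adjusted p = 5.5e-05), Lsm1, of the ring that binds decaying mRNA, -0.38, and Eif4enif1, which carries the cap-binding protein to P bodies, -0.32. With PGC-1alpha, where Ddx6 fell, 0 of 25 were raised or lowered by limma, and 2 were higher and 2 lower at an unadjusted p under 0.05. The smallest p-values belonged to Cnot3 (0.29, adjusted p = 0.10) and Lsm1 (0.26, adjusted p = 0.11).

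Of 16 G-patch proteins, which switch on DEAH helicases such as Dhx15, 7 were lowered (43.8%, against 18% of all genes) and 1 was raised (6.25%, against 11.3%) with rapamycin, among them Nkrf at -0.45 (adjusted p = 0.00011), Gpatch4 at -0.41, Pinx1 at -0.30 and Gpkow at -0.27, with Gpatch2 raised at 0.16 (adjusted p = 0.046). With PGC-1alpha 0 were raised and 0 lowered by limma, with 1 higher and 0 lower at an unadjusted p under 0.05. Of 12 genes of RNA sensing, 2 were lowered with rapamycin (16.7%, near the 18% of all genes) and 0 raised, with 1 higher and 3 lower at an unadjusted p under 0.05 in limma. The lowered ones were Ifit1 at -0.50 (adjusted p = 0.00025) and Mavs, the adaptor of RIG-I, at -0.22 (adjusted p = 0.027). With PGC-1alpha 0 were raised and 0 lowered, with 2 higher and 1 lower at an unadjusted p under 0.05.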

How the data were processed

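Expression was measured on 12 arrays in 4 groups of 3, with groups and replicate numbers from the sample titles and labels. The table deposited by the authors holds 1 intensity per probe set and array. They made these values with RMA at default settings in BioConductor 1.2, per the series design text, in 1 batch for rapamycin and vehicle and another for PGC-1alpha and GFP. Trizol was used for the RNA and biotin for the label, per the labels. The intensity values run from 9.299 to 21072.4 with array medians of 77.5 to 81.0, so they were read as linear, and log2 was taken without a pseudocount. RMA evens out the arrays of a batch, so changes are relative to the rest of the array. Without detection calls, dim values may be background. Precision is limited by the number of arrays.

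Of 45101 probe sets, 64 controls were left out and 45037 tested. The platform annotation gave 1 symbol for 34945, several for 932 and none for 9160, and Entrez IDs updated 34741 of them through RefSeq's GRCm38.p6 table. The 6 arrays of a comparison were fitted alone, with limma 3.58.1 in R 4.3.3, two-sided, adjusted by Benjamini-Hochberg, at 0.05. Errors are limma's moderated standard errors (SE). The difference of effects came from 1 limma fit of 12 arrays. The fits were tested on simulated data. Python 3.11.15, pandas 2.3.3 and matplotlib 3.10.9 made the tables and figures.

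Members, role groups, lists and tests were chosen with earlier results of these data known. Values by array are given for up to 3 genes per role, direction and comparison with the greatest change past the threshold, for Ddx6 and for genes whose probe sets passed in opposite directions; further genes come from the lists, and the probe sets of Ddx3x were singled out after their values were seen. Other helicase paralogs without a probe set of their own were not analysed here. Alternatives were other normalizations, filters, offsets, probe set choices, variance models, a replicate block and single arrays left out.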

Additional observations from a re-analysis of the deposited data

How the results depend on the processing

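Of the 26 falls with rapamycin, 21 kept direction and call under every alternative tried; of the 6 rises, 0 did, and of the 2 falls with PGC-1alpha, only that of Ddx6 did. Leaving out each array in turn gave 4 to 6 rises and 25 to 27 falls with rapamycin, 0 to 4 rises and 1 to 2 falls with PGC-1alpha, and 3 genes higher and 23 to 24 lower in the difference of effects. Spike scaling gave 0 rises with rapamycin, 1 fall with PGC-1alpha, and 1 gene higher and 38 lower in the difference; it shifted the median of all probe sets by -0.22 with rapamycin and 0.19 with PGC-1alpha. With PGC-1alpha, 1 fit of 12 arrays gave 1 rise and 4 falls, leaving out dim probe sets 1 rise, and log2(value + 16) and the median over probe sets 1 fall each. Quantile normalization over 12 arrays gave 7 genes higher in the difference. Turned directions are listed only for genes that had passed the test. Under the median over probe sets, they turned for Ddx47 with rapamycin (0.03, from a dim probe set) and for Dhx36 with PGC-1alpha (0.11). Under spike scaling they turned for Ddx17 (-0.02), Dhx40 (-0.03) and Dhx57 (-0.01) with rapamycin. Of genes that had not passed, Ddx3x with PGC-1alpha went from -0.24 to 0.15 under the median over probe sets (limma's adjusted p = 0.49). The cause was not tested. With the replicate number as a block, 6 genes rose and 26 fell with rapamycin, 0 rose and 2 fell with PGC-1alpha, and 3 were higher and 23 lower in the difference. Deviations of arrays with the same number correlated at -0.052, 0.072 and 0.005 for rapamycin with vehicle and at -0.133, 0.231 and -0.011 for PGC-1alpha with GFP, so the numbers were not read as pairing the arrays. A mean log2 intensity under 6, where signal and background cannot be told apart, was found for Ddx23, Ddx43, Ddx60 and Dhx37 on the rapamycin and vehicle arrays and for Ddx43, Ddx60 and Dhx58 on the PGC-1alpha and GFP arrays.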
